A study of Rattus norvegicus with 9 samples.

Results

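The miRNAs described here are rno-miR-122-5p, rno-miR-122b and rno-miR-192-5p (written without rno- from here on), taken by name from a table of 201 mature rat miRNAs measured in exosomes of peritoneal macrophages; all 3 names were in that table and all 3 passed the filter on low counts. Small RNA was sequenced in 9 libraries, 3 in each of 3 groups. The LPS+AS-IV group was given 150 µM astragaloside IV (AS-IV, a plant saponin from Astragalus) over 24 h and then lipopolysaccharide (LPS, an outer membrane component of Gram-negative bacteria that activates macrophages), which the protocol gives as 100 ng/ml for 6 h. The LPS group received LPS alone at that dose and time, and the Control group received 0.1% DMSO for 24 h. Per the labels' protocols, LPS and AS-IV were dissolved in DMSO as well, so all 3 groups met DMSO, for times that differ. The macrophages were primary cells lavaged from untreated rat, whose strain and age the labels do not give. Nothing says that libraries of 1 group were made from different rats or dishes. The p-values therefore describe library-to-library spread, which may be technical.

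The culture medium held 10% fetal bovine serum, and the labels do not say whether serum vesicles had been removed. Reads of a miRNA whose mature sequence rat and cattle share cannot be assigned to cells or serum in these files. In exosome RNA, more vesicles and more copies per vesicle cannot be told apart either.

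miR-122 is the most abundant miRNA of hepatocytes. It represses genes that set cholesterol and lipid metabolism and keeps hepatocytes differentiated, and its level in blood is used as a marker of liver injury. miR-192 is expressed in liver, kidney and intestine, is encoded next to a copy of miR-194, and has been studied in renal fibrosis. A miRNA selects its targets mainly through its seed, bases 2 to 8 from the 5′ end. A miRNA cut 1 base further along therefore carries another seed, while trimming or tailing of the 3′ end leaves the seed as it was.

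The reference sequences show how these names relate. They are RefSeq mature sequences of the rat build GRCr8, given 5′ to 3′ with the seed in capitals. RefSeq's table had entries for miR-122-5p and miR-192-5p. miR-122b had no entry there.
miR-122-5p: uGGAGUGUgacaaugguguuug
miR-3591: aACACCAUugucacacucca
miR-192-5p: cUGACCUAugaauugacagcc
miR-215: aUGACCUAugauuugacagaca

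miR-122-5p lies on the plus strand at chr18:61028831-61028852, inside the Mir122 hairpin at chr18:61028817-61028901. miR-3591 is read from the minus strand of the same place, chr18:61028831-61028850, so it is the reverse complement of the first 20 bases of miR-122-5p. miR-192-5p lies on the plus strand at chr1:212994232-212994252, in the Mir192 hairpin at chr1:212994209-212994318, and the Mir194-2 hairpin stands upstream of it on the same strand at chr1:212994024-212994108. miR-215 lies on chromosome 13 and shares the seed UGACCUA with miR-192-5p.

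The tags, the distinct sequences counted in each library, show what was read under each name. Those below carried most of the reads, again with the seed in capitals. The first 3 are named miR-122-5p, miR-122-5p and miR-122b in the deposited files, the fourth is named miR-192-5p, and the fifth is listed under the Rfam family identifier RF00130 and not under a rat miRNA name.
miR-122-5p tag of 22 nt: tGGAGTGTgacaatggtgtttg
miR-122-5p tag of 21 nt: tGGAGTGTgacaatggtgttt
miR-122b tag of 20 nt: tGGAGTGTgacaatggtgtt
miR-192-5p tag of 21 nt: cTGACCTAtgaattgacagcc
Rfam tag of 23 nt: tGACCTATgaattgacagccagt

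Under the name miR-122b the table counted a single tag, and it is identical to the first 20 bases of miR-122-5p. It shares all 20 bases and the seed with miR-122-5p, and it is the exact reverse complement of miR-3591. In the table the name miR-122b was thus set by length alone: the same 5′ end was called miR-122b at 20 nt and miR-122-5p at 21 or 22 nt. That tag was never named miR-122-5p in any library. Among all tags with a miRNA name, hairpin tags included, 23 were named miR-122-5p at least once and 10 were named miR-122b. Only 1 carried both names, in different libraries, a tag of 21 nt that ends in an A not found in the hairpin, with 33 reads in all. No tag of one name was the reverse complement of a tag of the other. No tag in the 9 libraries held the reverse complement of bases 3 to 16 of miR-122-5p, so there were 0 reads of that antisense stretch, and miR-3591 was not among the table's names.

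miR-122-5p was read in every library. The table counted 86, 377 and 2052 reads in LPS+AS-IV, 245, 208 and 357 in LPS, and 150, 48 and 108 in Control. These are few reads of libraries whose miRNA tables held between 15426 and 546599 reads. By table reads LPS+AS-IV 3 was the deepest library and LPS+AS-IV 1 the shallowest, while by reads assigned to any class LPS+AS-IV 1 was the deepest, with 9527483.

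On a scale relative to library size (CPM, with TMM library factors), miR-122-5p came to 6203, 5747 and 4099 CPM in the LPS+AS-IV libraries, 8816, 3561 and 5724 CPM in those of LPS, and 3238, 1434 and 1451 CPM in Control. Its mean level was 5350 ± 1107 CPM in LPS+AS-IV, 6034 ± 2641 CPM in LPS and 2041 ± 1037 CPM in Control (SD, n = 3 each). LPS was first in order and Control last. LPS+AS-IV and LPS overlapped, and the highest Control library, Control 1, stayed below the lowest of the other 6, LPS 2. miR-122-5p was thus 1 of the 7.45% of the 94 tested miRNAs that were higher in LPS than in Control without overlap (11.7% were lower), and 1 of the 5.32% higher in LPS+AS-IV than in Control (5.32% were lower). Between LPS+AS-IV and LPS, 4.26% were higher and 3.19% lower without overlap, and neither miR-122-5p, miR-122b nor miR-192-5p was among them.

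Whether the groups separated depended on the scale. Of the reads counted in the table, miR-122-5p held 0.557%, 0.548% and 0.375% in LPS+AS-IV, 0.961%, 0.317% and 0.580% in LPS, and 0.356%, 0.156% and 0.143% in Control. LPS 2 was then below Control 1, with 95% Wilson intervals of 0.276 to 0.362% and 0.303 to 0.417%. Relative to all reads assigned to any class (RPM), miR-122-5p had 9.03, 41.4 and 306 RPM in LPS+AS-IV, 26.3, 59.7 and 39.9 in LPS, and 20.8, 8.81 and 13.1 in Control, so that LPS stood apart from Control and LPS+AS-IV did not.

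**Figure D1:**
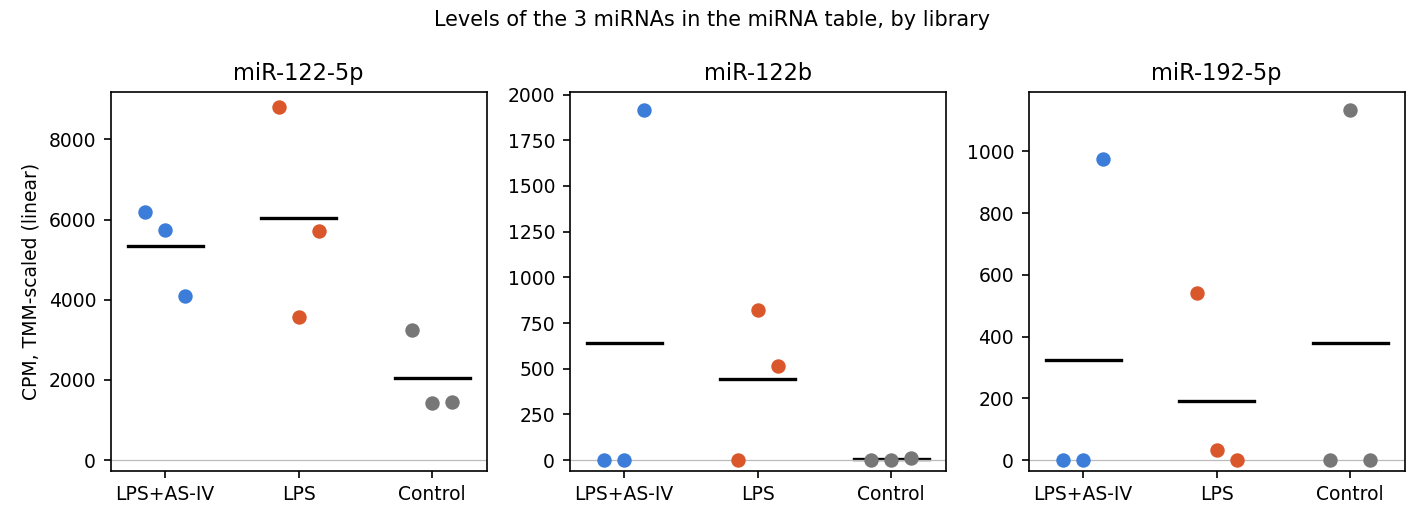
TMM-scaled CPM of miR-122-5p, miR-122b and miR-192-5p in the miRNA table, on linear axes that differ between panels; each point is 1 library and each line the mean of 3. miR-122-5p was read in all 9 libraries, with Control between 1434 and 3238 CPM, while miR-122b and miR-192-5p were at 0 in 5 libraries each.

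In the fit over the 94 miRNAs none of the 3 passed in any comparison. For LPS against Control, miR-122-5p had a log2 fold change of 1.56 (SE 0.78, edgeR adjusted p = 0.662, quasi-likelihood test with Benjamini-Hochberg adjustment). Its unadjusted edgeR value, 0.0668, ranked 9 of 94. For LPS+AS-IV against Control the value was 1.39 (SE 0.78, edgeR adjusted p = 0.835), and the unadjusted edgeR value, 0.0978, ranked 11 of 94. These comparisons share the Control libraries. In LPS+AS-IV against LPS it was -0.17 (SE 0.77, edgeR adjusted p = 0.963), with a sign that turned without LPS 1 (0.03, SE 1.09). For reference, edgeR called 1.06% of the 94 miRNAs higher and 0% lower in LPS than in Control. It called 1.06% higher and 1.06% lower in LPS+AS-IV than in Control, and 0% higher or lower in LPS+AS-IV than in LPS.

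miR-122b was read in 4 libraries. It had 0, 0 and 960 reads in LPS+AS-IV, 0, 48 and 32 in LPS, and 0, 0 and 1 in Control. Every group held a library with none. In LPS+AS-IV all reads came from LPS+AS-IV 3. With no read, levels under 216 CPM in LPS+AS-IV 1 or under 45.7 CPM in LPS+AS-IV 2 were not detectable. The mean level was 639 ± 1107 CPM in LPS+AS-IV, 445 ± 415 CPM in LPS and 4.48 ± 7.76 CPM in Control (SD, n = 3 each).

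Summed over each group and scaled to depth, miR-122b reads in LPS were 83.0 times those in Control (95% exact interval 14.5 to 3320, counting error only), which rests on 80 reads against 1. No group difference passed the test across libraries. The edgeR adjusted p was 0.779 in LPS against Control, 0.963 in LPS+AS-IV against LPS and 0.835 in LPS+AS-IV against Control. Fitted log2 fold changes against Control, 6.08 (SE 3.53) for LPS and 6.61 (SE 3.61) for LPS+AS-IV, rest on that 1 read and give no precise size; the second was -1.56 (SE 2.41) without LPS+AS-IV 3.

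Since miR-122b is a shorter miR-122-5p, the lengths were compared in all tags that hold bases 3 to 16 of miR-122-5p, whatever name they carried. These core tags, a definition chosen after the tags were seen, had 4913 reads, of which 1041 were counted as miR-122b. The tag of 22 nt had 71, 106 and 1798 reads in LPS+AS-IV, 107, 87 and 327 in LPS, and 51, 33 and 54 in Control. The tag of 21 nt had 15, 270 and 254 reads in LPS+AS-IV, 138, 121 and 30 in LPS, and 99, 15 and 54 in Control. Either tag could lead in a library of any group: the longer one in LPS+AS-IV 1, LPS+AS-IV 3, LPS 3 and Control 2, the shorter one in LPS+AS-IV 2, LPS 1, LPS 2 and Control 1. Tags of 22 nt held 53.8% of the reads (95% Wilson interval 52.4 to 55.1%), tags of 20 nt or less 21.7% (20.5 to 22.9%), tags of 21 nt 20.96% (19.8 to 22.1%) and tags of 23 nt or more 3.603% (3.12 to 4.16%). LPS+AS-IV 3 holds 3016 of these reads, and without it the shares were 44.4% for 22 nt, 5.43% for 20 nt or less, 40.9% for 21 nt and 9.28% for 23 nt or more; without LPS+AS-IV 1 the last was 1.96%. Nearly all of the tags of 20 nt or less came from a few libraries. They held 0%, 0% and 31.9% of the reads in LPS+AS-IV, 0%, 18.7% and 11.0% in LPS, and 0%, 0% and 0.909% in Control.

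The 3′ end varied as much between libraries of a group as between groups. Over all core tags, the share of 22 nt or longer was 88.1%, 28.4% and 59.7% in LPS+AS-IV. It was 51.7%, 33.9% and 77.3% in LPS, and 34.4%, 70.6% and 50.0% in Control. Tags named miR-122-5p in the table leave out the tag counted as miR-122b. Among these named tags the share was 82.6%, 28.4% and 87.6% in LPS+AS-IV. It was 43.7%, 41.8% and 91.6% in LPS, and 34%, 68.8% and 50.0% in Control. The means were 66.2% ± 32.8, 59.0% ± 28.2 and 50.9% ± 17.4 in the same groups (SD, n = 3 each). By two-sided exact permutation tests over 3 comparisons p was 0.7 for LPS against Control, 1 for LPS+AS-IV against LPS and 0.6 for LPS+AS-IV against Control, each 1 after adjustment, where 0.1 is the smallest p this design can give.

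Some longer tags were left out of the table although they match the hairpin. The tag below continues with the next base of the Mir122 hairpin, so it matches without a mismatch, but the files list it as a hairpin tag with 1 mismatch. It had 48 reads in LPS+AS-IV 1, 38 in LPS 1, and 1 each in Control 2 and Control 3. The second tag ends in an A that the hairpin does not hold, shown in capitals. In mouse liver and human cells the enzyme GLD-2 is known to add an A to the 3′ end of miR-122.
Templated tag of 23 nt: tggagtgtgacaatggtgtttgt
Tag with an added A: tggagtgtgacaatggtgtttgA

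The tag with the added A had 35 reads in LPS+AS-IV 1, 50 in LPS 3 and 1 in Control 1, and none in the other libraries. Of the 236 core reads of miR-122 given to hairpins, 110 matched the Mir122 hairpin exactly. In the table and outside it together, 97.3% of core reads were an exact stretch of the hairpin (95% Wilson interval 96.8 to 97.7%), and 4911 of the 4913 began at base 1 of miR-122-5p.

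**Figure D2:**
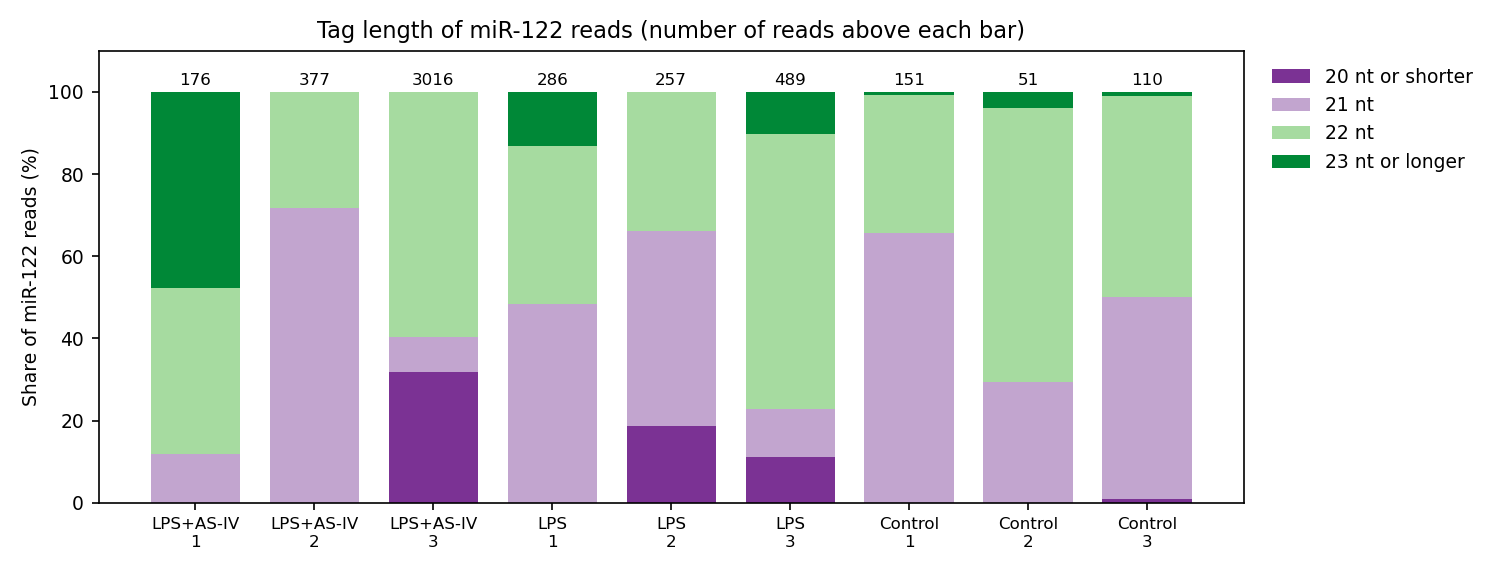
Share of miR-122 core reads (%) by tag length in each of the 9 libraries, with the number of reads above each bar. Tags of 20 nt or shorter, mostly the tag counted as miR-122b, took 31.9% in LPS+AS-IV 3, 18.7% in LPS 2 and 11.0% in LPS 3 and under 1% elsewhere.

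With every core tag counted, miR-122 came to 12570, 5747 and 6055 CPM in the LPS+AS-IV libraries, 10465, 4343 and 7727 CPM in those of LPS, and 3224, 1535 and 1459 CPM in Control. These CPM divide core reads by library sizes in which only miR-122 and miR-192 were recounted. The core-tag fit likewise set those recounted miRNAs beside table reads of all others. The means were 8124 ± 3853 CPM in LPS+AS-IV, 7511 ± 3067 CPM in LPS and 2073 ± 998 CPM in Control (SD, n = 3 each). Control again lay below both other groups without overlap. Relative to all assigned reads LPS 1, the lowest LPS library at 30.7 RPM, was above Control 1, the highest Control library at 20.9 RPM, while LPS+AS-IV 1, at 18.5 RPM, was not. Of 112 miRNAs with at least 100 core reads, 4.46% were higher and 9.82% lower in LPS than in Control without overlap, 6.25% were higher and 6.25% lower in LPS+AS-IV than in Control, and 8.93% were higher and 1.79% lower in LPS+AS-IV than in LPS. For LPS against Control the core tags gave a log2 fold change of 1.86 (SE 0.73, edgeR adjusted p = 0.625), with an unadjusted value of 0.0235. For LPS+AS-IV against Control they gave 1.97 (SE 0.73, edgeR adjusted p = 0.414), with an unadjusted value of 0.0178. LPS+AS-IV and LPS differed by 0.11 (SE 0.71, edgeR adjusted p = 0.965). The table had ranked LPS first; with the core tags LPS+AS-IV was first, and neither order exceeded the spread.

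miR-192-5p was counted in only 4 libraries. The table gave 0, 0 and 488 reads in LPS+AS-IV, 15, 2 and 0 in LPS, and 0, 38 and 0 in Control. The mean level was 325 ± 563 CPM in LPS+AS-IV, 191 ± 302 CPM in LPS and 378 ± 655 CPM in Control (SD, n = 3 each), with Control highest, LPS lowest and all groups overlapping. For LPS against Control it had a log2 fold change of -0.99 (SE 3.13, edgeR adjusted p = 0.964). LPS+AS-IV against LPS gave 0.82 (SE 3.11, edgeR adjusted p = 0.963), and LPS+AS-IV against Control gave -0.18 (SE 3.07, edgeR adjusted p = 0.981). Single libraries set these values: LPS against Control was 7.45 (SE 5.40) without Control 2, and LPS+AS-IV against LPS was -6.41 (SE 4.69) without LPS+AS-IV 3.

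Those counts held a small part of the miR-192 reads. Tags with bases 3 to 16 of miR-192-5p had 3600 reads in the 9 libraries, of which 543, or 15.1% (95% Wilson interval 13.95 to 16.29%), were in the table. Without LPS+AS-IV 3 the share was 4.94%. A further 189 reads were hairpin tags and 2868 were given to an Rfam family. For miR-122 the table held 95.1% of core reads (94.5 to 95.7%). Across the 112 miRNAs the median was 45.3%, with quartiles of 19.5% and 73.5%, and miR-192-5p had the third-highest share given to Rfam, 79.7%.

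The main miR-192 tag is the Rfam tag of 23 nt shown above. It begins 1 base after miR-192-5p, matches the Mir192 hairpin over all its bases and carries the seed GACCTAT in place of TGACCTA, the seed shared with miR-215. It had 0, 3 and 1939 reads in LPS+AS-IV, 62, 150 and 235 in LPS, and 27, 0 and 137 in Control, 2553 in all. The tag with the mature sequence of miR-192-5p, which the table counts, had 486 reads in LPS+AS-IV 3, 15 in LPS 1 and 2 in LPS 2. The 38 miR-192-5p reads of Control 2 came from another tag, which leaves the hairpin sequence after base 21 (later bases in capitals). Its last base, T, is again the hairpin's base at that position. The tag is nevertheless listed with 0 mismatches.
Control 2 tag of 24 nt: ctgacctatgaattgacagccTAT

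Of the 8 libraries with miR-192 reads, the late start was the common form in all but Control 2. Of all core reads 79.6% began 1 base late (95% Wilson interval 78.2 to 80.9%), and the share stayed between 78.4% and 80.4% with any 1 library left out. It was 100% of 42 reads in LPS+AS-IV 2 and 80.1% of 2486 in LPS+AS-IV 3, and LPS+AS-IV 1 had no core read. It was 76.9%, 77.9% and 80.3% in LPS, and 100%, 0% and 79.0% in Control. In miR-122 it was 1 read of 4913. A match to the hairpin stopped before the 3′ end in 12.2% of miR-192 core reads (11.1 to 13.3%), against 2.58% of miR-122 core reads (2.18 to 3.07%). Bases after the first mismatch were not compared, so some of them may match the hairpin. LPS+AS-IV 3 set both shares: without it they were 34.3% for miR-192 and 6.64% for miR-122, and without LPS 3 the share for miR-122 was 1.11%.

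**Figure D3:**
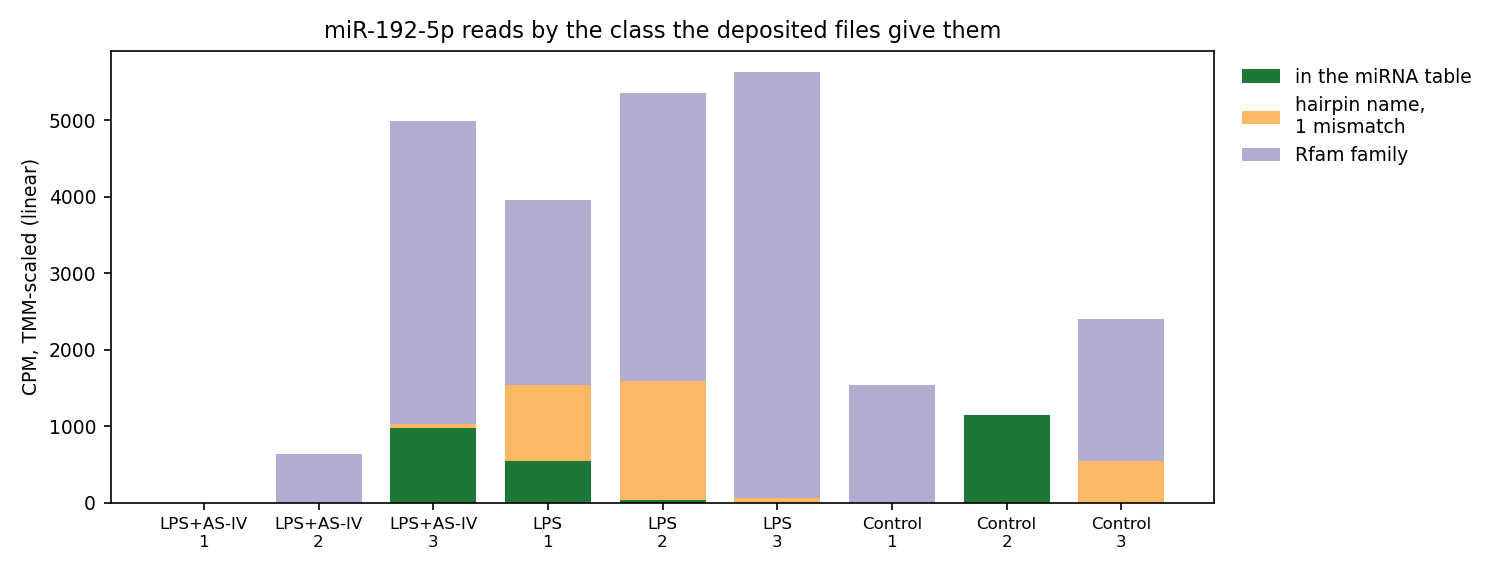
TMM-scaled CPM of miR-192-5p core tags in each library, on a linear axis and stacked by the class the deposited files give the tag. The table part is at 0 in 5 libraries, while the total lies between 3952 and 5625 CPM in the LPS libraries and between 1144 and 2401 CPM in the Control libraries.

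Counted over all core tags, miR-192 came to 0, 640 and 4991 CPM in the LPS+AS-IV libraries, 3952, 5356 and 5625 CPM in those of LPS, and 1537, 1144 and 2401 CPM in Control. It was thus detected in 8 of 9 libraries rather than in 4, and LPS+AS-IV 1, with no read, could hold up to 214 CPM. The means were 1877 ± 2715 CPM in LPS+AS-IV, 4978 ± 899 CPM in LPS and 1694 ± 643 CPM in Control (SD, n = 3 each). Every LPS library was above every Control library, which made miR-192 another of the 4.46% of the 112 miRNAs, and LPS+AS-IV overlapped both groups. The separation was lost relative to all assigned reads, where miR-192 core tags had 0, 4.62 and 371 RPM in LPS+AS-IV, 11.6, 91.0 and 39.8 in LPS, and 9.97, 6.97 and 22.03 in Control, with LPS 1 below Control 3. For LPS against Control the core tags gave a log2 fold change of 1.55 (SE 1.44, edgeR adjusted p = 0.967), opposite in sign to the table's. LPS+AS-IV against LPS gave -1.40 (SE 1.43, edgeR adjusted p = 0.965), and LPS+AS-IV against Control gave 0.16 (SE 1.41, edgeR adjusted p = 0.973).

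**Figure D4:**
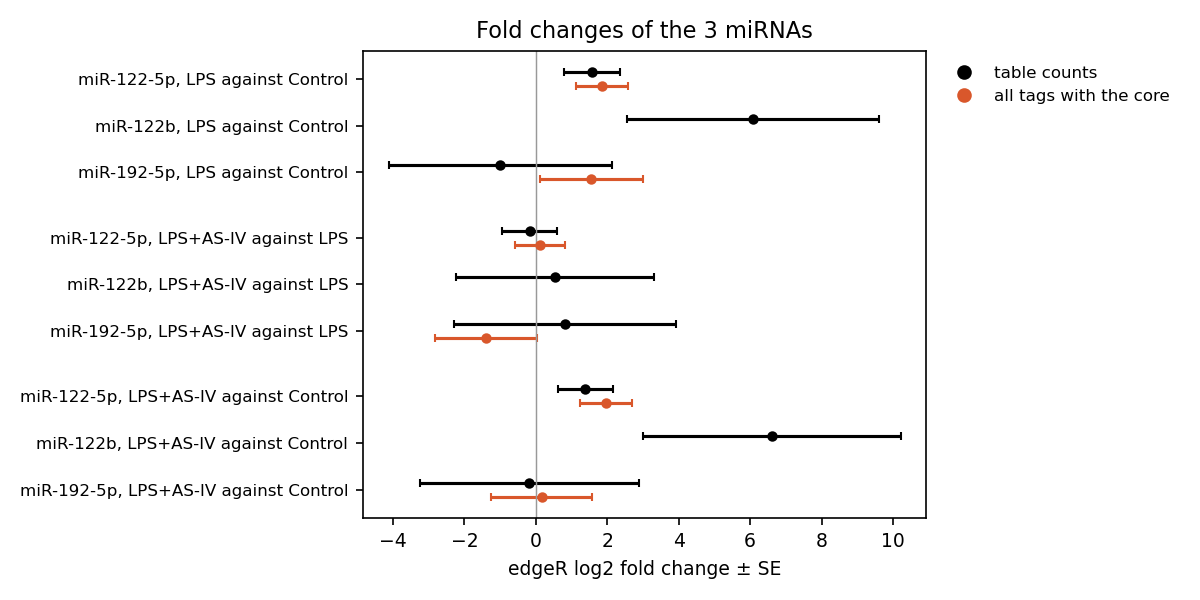
edgeR log2 fold change ± SE of each miRNA in the 3 comparisons, from the table's counts (black) and from all core tags (orange, where miR-122b is part of miR-122-5p). No value passed adjusted p under 0.05; miR-192-5p in LPS against Control was -0.99 from the table and 1.55 from the core tags.

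The table gives no usable ratio of miR-122-5p to miR-192-5p, since miR-192-5p had 0 table reads in 5 libraries and the ratio there depends on the read added and on depth; its permutation tests are not read here. With core tags and 0.5 read added to each, the log2 ratio of miR-122 to miR-192 was 3.15 for LPS+AS-IV 2, 0.28 for LPS+AS-IV 3, 1.40, -0.30 and 0.46 in LPS, and 1.06, 0.42 and -0.72 in Control. No ratio is given for LPS+AS-IV 1, which had 176 core reads of miR-122 and 0 of miR-192.

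The number of reads per tag bears on how finely these levels are resolved. Among tags with at least 8 reads, counted in bins 0.25 wide on the log2 scale, the commonest read number was 99, 49 and 664 in LPS+AS-IV, 58, 70 and 139 in LPS, and 35, 35 and 70 in Control. In units of that number, the core reads of miR-122 came to between 1.46 in Control 2 and 7.69 in LPS+AS-IV 2, and those of miR-192 to at most 4.53, in LPS 2. The 960 reads of miR-122b in LPS+AS-IV 3 were 1.45 such units and the 38 reads of miR-192-5p in Control 2 were 1.09. Whether a unit stands for 1 captured molecule was not tested.

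The rest of a liver list of 13 miRNAs was scarce. Only 5 were in the table and the 3 described here were the ones tested, with 0 called in either direction. With those 3 alone tested, the list adds no values to theirs. miR-194-5p, the neighbour of miR-192, had 2 reads in the table, both in LPS 2. As a hairpin tag that is 1 base shorter than the reference, it had 8, 175 and 0 reads in LPS+AS-IV, 21, 0 and 0 in LPS, and 73, 0 and 52 in Control. Its reference and that tag are shown with the seed in capitals.
miR-194-5p: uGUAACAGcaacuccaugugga
miR-194-5p tag of 21 nt: tGTAACAGcaactccatgtgg

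miR-148a-3p, a liver-rich miRNA that targets the DNA methyltransferase Dnmt1 in human and mouse cells, had 19 reads in the table, all in LPS 1. miR-193a-5p had 217 hairpin reads in LPS 3, 88 in Control 3 and 4 in LPS+AS-IV 1, and none in the table. miR-215 had 1 hairpin read, in LPS 2. miR-122-3p, miR-192-3p, miR-194-3p, miR-193a-3p, miR-148a-5p and miR-802-5p had none under those names.

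Markers of other sources were set beside them. Since the table holds few of the core reads of some markers, 5.32% for miR-21-5p, 16.2% for miR-223-3p and 23.8% for miR-155-5p, each list was also summed over core tags of the members with a RefSeq sequence, scaled to the same library sizes. Of the 9 macrophage miRNAs 5 had table reads in each group, with a summed share of 0.718 to 7.19% of table reads in LPS+AS-IV, 1.10 to 3.76% in LPS and 2.12 to 4.94% in Control. Over core tags they summed to between 42343 and 211650 CPM in the LPS+AS-IV libraries, 64869 and 177760 CPM in those of LPS, and 111330 and 145170 CPM in Control. miR-21-5p, miR-146a-5p and miR-223-3p had core reads in all 9 libraries, miR-155-5p in 8 and miR-142-5p in 5. The core of miR-146a-5p belongs to 2 names of the table, so its core reads cover both. The myeloid marker miR-142-3p had 14 core reads in LPS 1 and 81 in Control 3, all in hairpin tags. miR-511-5p, miR-511-3p and miR-147 had none.

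The other lists overlapped between groups over core tags, except the endothelial pair. miRNAs of blood cells and plasma, led by miR-92a-3p and miR-451-5p, summed to between 394470 and 496190 CPM in the LPS+AS-IV libraries, 380330 and 509620 CPM in those of LPS, and 446070 and 475340 CPM in Control. The lymphocyte miRNAs, nearly all miR-181a-5p, summed to between 109340 and 221500, 144130 and 192260, and 135470 and 149520 CPM in the same order. The epithelial ones lay between 6.02 and 3071, 1074.5 and 2112, and 13.3 and 1415 CPM. Those of striated muscle lay between 625 and 10541, 524 and 8233, and 2925 and 7165 CPM. Members without a RefSeq sequence were left out of these sums: miR-486 (blood), miR-150-5p (lymphocyte), and miR-200a-3p, miR-200b-3p and miR-429 (epithelial). In the table miR-150-5p held between 1.42% and 4.06% of the reads of each library. The endothelial pair, miR-126a-3p and miR-126a-5p, summed to between 5428 and 14331 CPM in the LPS+AS-IV libraries, 5269 and 5989 CPM in those of LPS, and 11379 and 19286 CPM in Control, lower in each LPS library than in any Control library. Of the 112 miRNAs with at least 100 core reads, 9.82% were lower in LPS than in Control without overlap. Relative to all assigned reads the separation was lost, with LPS 2 above Control 2. miR-126a-3p had 354 core reads among 3484099 assigned reads in LPS 2, and 377 among 5449156 in Control 2. Nearly all reads of the pair were miR-126a-3p, with 8301 core reads against 24 of miR-126a-5p. Of the 34 miRNAs of these 6 lists 15 passed the filter and were tested in the table, none of them in the striated muscle list, and edgeR called 0 of the 15 in any comparison. Their part in the levels of miR-122 and miR-192 was not tested.

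The tested miRNAs most alike in pattern were found from the root mean square difference of log2 CPM over the 9 libraries, each miRNA centred on its own mean. For miR-122-5p they were miR-92a-3p (0.78), miR-191a-5p (0.81) and let-7g-5p (0.82), where the median over all tested miRNAs was 2.78. The SD of miR-122-5p itself was 0.91 on this scale, and a miRNA of constant level would differ from it by slightly less than that SD. The miRNAs named were thus little nearer than a constant level. For miR-192-5p they were miR-196b-5p (2.60), miR-199a-3p (3.07) and miR-100-5p (3.14), with a median of 4.01 and an SD of 3.58 for miR-192-5p itself.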

How the data were processed

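The authors deposited 1 table of read counts per mature miRNA, not normalized per the file headers, with a second column of whole-number counts headed exp, used in an alternative only. Per library, the authors also deposited the count of each tag with its assignment and a score, which per the file headers is a mismatch number or an Rfam score. Bowtie2 and Rnor_6.0 appear in the submitters' processing notes, with no role or version, and the sources used here do not give the miRBase release. RefSeq sequences (GRCr8) gave sequence and position; 182 of the 201 names matched.

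Counts were tested with edgeR 4.0.16 (R 4.3.3): TMM factors, filterByExpr defaults, 1 fit over the 3 groups, quasi-likelihood test, Benjamini-Hochberg adjusted p under 0.05 over 94 miRNAs. SE is the absolute log2 fold change over the root of F. The fit was run on simulated counts, where recovery was required only at a spread far below that of these data (root of the common dispersion 1.42). That requirement says nothing of what the fit can recover at the spread seen here. DESeq2 1.42.0, other scalings, filters and tag assignments, and leaving out each library were alternatives. Exact permutation tests enumerated all splits of 3 against 3.

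Core tags hold bases 3 to 16 of the RefSeq sequence exactly; this grouping was added after the data were seen. Shares have 95% Wilson intervals and a count of 0 allows up to 3 reads. The labels name no molecular identifiers, so intervals and limits cover counting error only. Assigned reads per library ranged from 3484099 to 9527483. For miR-122-5p, miR-122b and miR-192-5p the table equalled the summed tags with 0 mismatches in all 9 libraries. Library pairs of a group differed by a chi-square over degrees of freedom of at least 24.3. Named miRNAs were those 3, other members of a liver list with reads, and the 3 most alike in pattern; marker lists were given as summed levels, with a few members named. The members and lists were chosen with earlier results of these data known.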

Additional observations from a re-analysis of the deposited data

Results flagged for a closer look

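miR-192-5p core tags outside the miRNA table, in the hairpin and Rfam classes, had a higher CPM in each LPS library than in any Control library. Their mean was 4784 ± 1205 CPM in LPS and 1313 ± 1216 CPM in Control (SD, n = 3 each). Of the 112 miRNAs with at least 100 core reads, 3.57% were higher and 7.14% lower in LPS without overlap in this measure. Relative to all assigned reads the groups overlapped, with 9.99 RPM in LPS 1 and 22.03 RPM in Control 3. These reads enter no test on the deposited table; with all core tags the edgeR adjusted p of LPS against Control was 0.967.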

How the results depend on the processing

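None of the 166 alternative values of miR-122-5p, miR-122b and miR-192-5p with an adjusted p passed 0.05; DESeq2 gave miR-192-5p a fold change but no p in 3 more. Of the 169 in all, 149 kept their sign and 20 turned it. miR-122-5p stayed above Control in all 20 alternatives of either comparison, with a log2 fold change of 1.20 to 2.28 for LPS (adjusted p 0.345 to 0.808) and 1.06 to 1.97 for LPS+AS-IV (adjusted p 0.414 to 1). Its LPS+AS-IV against LPS value turned to 0.11 with core tags. For miR-192-5p, LPS against Control turned to 0.92 with tags of 0 or 1 mismatch and 1.55 with core tags; LPS+AS-IV against LPS turned to -1.64 and -1.40; LPS+AS-IV against Control turned to 0.070 without the filter and 0.16 with core tags. The cause was not tested. The median over all 94 miRNAs shifted by -0.10 for LPS+AS-IV against LPS under DESeq2 size factors. For LPS+AS-IV against Control it shifted by -0.19 under library totals. The log2 ratio of miR-122-5p to miR-192-5p in the table rests on the added 0.5 read where miR-192-5p is at 0. For LPS+AS-IV against LPS it was -0.26 and turned to 3.16 with 0 or 1 mismatch and 3.45 with core tags. Both of the latter values rest on the added read as well, since LPS+AS-IV 1 had no miR-192 read in either count.

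With each library left out in turn, miR-122-5p in LPS+AS-IV against LPS ranged from -0.67 to 0.029. miR-192-5p ranged from -4.37 to 7.45 in LPS against Control, -6.41 to 4.07 in LPS+AS-IV against LPS and -7.24 to 8.19 in LPS+AS-IV against Control. miR-122b ranged from -7.43 to 1.34 in LPS+AS-IV against LPS and -1.56 to 9.01 in LPS+AS-IV against Control. The log2 ratio ranged from -1.38 to 2.57, -1.86 to 1.88 and -1.64 to 3.05 in the same 3 comparisons, and the share of 22 nt or longer by -8.17 to 17.0 points in LPS against Control and -3.56 to 26.1 points in LPS+AS-IV against LPS. The table's share of miR-192-5p core reads ranged from 4.94% to 16.7%.

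miRNAs called in LPS against Control, 1 by edgeR, numbered 2 with library totals, no filter, the exp column, the replicate block or both miR-122 names summed, 3 by DESeq2 or with the 2 groups alone, 0 with 1 name per tag, and 1 to 3 with a library left out. In LPS+AS-IV against LPS 0 were called by edgeR (3 at an unadjusted p under 0.05), 1 by DESeq2, without the filter or with the replicate block, and 0 to 1 with a library left out. In LPS+AS-IV against Control 2 were called, 0 with 1 name per tag and 2 to 3 with a library left out. Whether replicate numbers pair the libraries is not stated. Of 9 same-numbered pairs 2 correlated above 0.1 (range -0.10 to 0.16), which cannot decide it with 3 libraries a group. With replicate numbers as a block, miR-192-5p was 0.37 in LPS against Control and 1.26 in LPS+AS-IV against Control, and miR-122b was -1.70 in LPS+AS-IV against LPS. A share of 23 nt or longer with 0 mismatches was not run, as no table tag of miR-122-5p is that long, miR-192-5p had no value in the fits of 2 groups alone, and miR-122b had none where too few libraries held it or its reads were pooled.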
